A study of Drosophila melanogaster with 2 samples.

Results

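Binding of GFP-tagged Ovo was mapped by chromatin immunoprecipitation and sequencing (ChIP-seq), and the regions described here are the autosomal peaks at the promoter of a single protein-coding gene. A peak was taken where its summit, the single position deposited for it within the peak, lay off the X chromosome. That summit also had to lie within 500 bp of annotated transcription start sites (TSSs) of exactly 1 protein-coding gene. 1358 of the 4477 peaks in the deposited thresholded list met this rule, and they fell at 1139 genes. They made up 39.4% of the 3446 autosomal peaks (95% exact Clopper-Pearson interval 37.8 to 41.1%) and 60.9% of the 2230 autosomal peaks that had any TSS within 500 bp. The material was whole adult females of *Drosophila melanogaster*, of unknown age, from a transgenic line that carries Ovo with GFP at its C terminus, precipitated with an antibody against GFP after sonication to 200 to 800 bp. Biological replicates 1 and 4, both of the same line, form 1 group, so there is no second condition, and the labels do not say which tissue of the fly a fragment came from. A control experiment is named in the labels and was not analysed here, nor was a precipitation from flies without the tag. Read counts are not in the peak lists, so sequencing depth is unknown and every interval below covers the counting of peaks, promoters or genes alone.

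Ovo, a transcription factor with zinc fingers, works in the germ cells of females and is needed there for survival and differentiation. Another product of the same locus, Shavenbaby, shapes the larval cuticle. The proteins recognise a short core, written here as TAACNGT, where N is any base. A core promoter is the stretch around a TSS on which RNA polymerase II assembles. Fly promoters fall broadly into those built on a TATA box or an Initiator, often of genes used in one tissue or stage, and those with DRE, Motif 1, Motif 6 or Motif 7 sequences, often of genes used in most cells. Many fly genes have several promoters, each used by its own set of transcripts, so that a peak at a gene may belong to only some of its transcripts.

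The sequences below are windows of 50 bp either side of the summit of the highest-scoring members on arms 2L, 3L and 3R among those whose window holds at most 30 bases of annotated untranslated region, read from Release 6 of the genome (dm6) on the strand of the gene, 5′ to 3′, with every core site in capitals. TAACNGT read on the other strand appears as ACNGTTA, and a run such as TAACGGTTA holds a site on each strand, overlapping, which counts as 2. The first 8 are shown because they hold the core site next to the strongest signal. The gene, its position and its strand precede each sequence.
subdued, chr3R:19641237-19641337, minus strand: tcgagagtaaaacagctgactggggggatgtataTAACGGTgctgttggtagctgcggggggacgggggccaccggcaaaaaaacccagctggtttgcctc
cnc, chr3R:23190170-23190270, minus strand: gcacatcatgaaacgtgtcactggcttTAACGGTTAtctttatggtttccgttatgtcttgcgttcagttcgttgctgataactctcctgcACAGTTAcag
Dph4, chr3R:5623148-5623248, minus strand: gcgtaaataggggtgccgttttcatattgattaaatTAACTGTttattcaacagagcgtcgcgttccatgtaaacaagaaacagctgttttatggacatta
tws, chr3R:10134512-10134612, minus strand: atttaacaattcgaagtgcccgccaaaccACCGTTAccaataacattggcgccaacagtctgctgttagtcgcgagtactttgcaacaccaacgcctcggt
cass, chr2L:17477894-17477994, minus strand: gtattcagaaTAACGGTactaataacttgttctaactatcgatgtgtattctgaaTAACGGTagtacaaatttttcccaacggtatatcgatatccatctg
nudC, chr3L:16808284-16808384, plus strand: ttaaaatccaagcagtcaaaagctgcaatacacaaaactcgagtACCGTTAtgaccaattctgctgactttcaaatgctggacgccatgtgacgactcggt
Pdk1, chr3L:131347-131447, plus strand: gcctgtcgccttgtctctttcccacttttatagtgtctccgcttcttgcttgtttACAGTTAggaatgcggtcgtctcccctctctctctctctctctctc
CG31145, chr3R:23670014-23670114, minus strand: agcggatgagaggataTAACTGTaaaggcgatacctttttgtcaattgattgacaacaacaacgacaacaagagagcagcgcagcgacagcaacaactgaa
The next 2 hold both strands of the core in 1 overlapping run, at a pair of summits of lower score.
jagn, chr3R:5779186-5779286, plus strand: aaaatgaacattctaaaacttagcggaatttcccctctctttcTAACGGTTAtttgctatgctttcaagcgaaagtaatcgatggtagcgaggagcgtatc
Pdk1, chr3L:140850-140950, plus strand: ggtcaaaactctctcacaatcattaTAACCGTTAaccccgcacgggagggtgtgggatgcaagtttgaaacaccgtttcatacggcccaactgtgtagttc
The last 3 are the strongest members of these arms, under the same limit, with no core site in the window, and they include the peak of highest score in the whole list and the stronger neighbour of the CG31145 peak above.
CG14100, chr3L:19590567-19590667, minus strand: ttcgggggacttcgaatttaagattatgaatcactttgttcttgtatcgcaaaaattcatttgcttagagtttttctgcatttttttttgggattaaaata
CG31145, chr3R:23669812-23669912, minus strand: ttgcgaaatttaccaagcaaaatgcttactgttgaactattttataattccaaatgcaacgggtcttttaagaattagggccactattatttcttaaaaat
fkh, chr3R:28585452-28585552, minus strand: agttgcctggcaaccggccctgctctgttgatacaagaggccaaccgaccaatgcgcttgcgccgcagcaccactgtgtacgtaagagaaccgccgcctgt
In these windows the core was read as TAACGGT at subdued, at cass (2 copies on the coding strand), at tws and at nudC, and as TAACTGT at Dph4, at the second promoter of Pdk1 and at the weaker CG31145 peak. The cnc window held 3 sites, of which 2 overlap.

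Every member carries a deposited score, the authors' enrichment over the control, which is used here only to order peaks within a list. The scores of the members ran from 74.9 to 1349 with a median of 115 (quartiles 90.4 and 165). CG14100 had the highest, 1349 in the thresholded list, with 552 in the list of replicate 1 and 800 in that of replicate 4, and it ranked first in all 3 lists. Next among members came subdued, which encodes a membrane protein of the anoctamin family, at 1017, with 423 in replicate 1 and 596 in replicate 4. The third was mRpL41, a protein of the large mitochondrial ribosomal subunit, at 820, with 360 in replicate 1 and 466 in replicate 4. Scores of different lists come from separate calls, so the higher figure of replicate 4 cannot be read as a difference in binding. CG31145 followed at 693 (290 and 398 in replicates 1 and 4) and CG5953 at 665 (322 and 345). The transcription factors among the 12 highest were cnc at 608 (285 and 322), a bZIP protein of the oxidative stress response and of head patterning, Sox14 at 603 (253 and 350), a responder to ecdysone, fkh at 575 (256 and 311), a factor of gut and salivary gland, and the BTB protein lolal at 555 (272 and 274). The others of the 12 were Dph4 at 578 (243 and 328), for diphthamide synthesis, eIF6 at 524 (204 and 319), a ribosome assembly factor, and the glycolytic enzyme Eno at 515 (180 and 337). The peaks of mRpL41 and eIF6 also had a TSS of a non-coding gene within 500 bp, and those of eIF6 and Dph4 lay inside a neighbouring protein-coding gene. Each of these 12 stood within the best 115 ranks of both replicates.

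Over all members, 95.6% had a summit within 100 bp in the relaxed list of replicate 1 and 96.6% in that of replicate 4; both lists hold 30000 peaks. Among the 4477 best peaks of each replicate, 81.7% of members were found for replicate 1 (79.5 to 83.7%) and 84.8% for replicate 4 (82.7 to 86.6%). 936 members (68.9%) were among the best of both and 34 (2.50%) among the best of neither. These shares were not computed over all thresholded peaks or for other classes, so they cannot be read as a trait of members. The median score of a member was 52.9 in replicate 1 and 65.2 in replicate 4. As a description, the ranks in the 2 replicates had a Spearman coefficient of 0.636 over the 1254 members matched in both. Members are not independent samples, and because the thresholded list was drawn from both replicates, presence in each is in part built in.

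**Figure D1:**
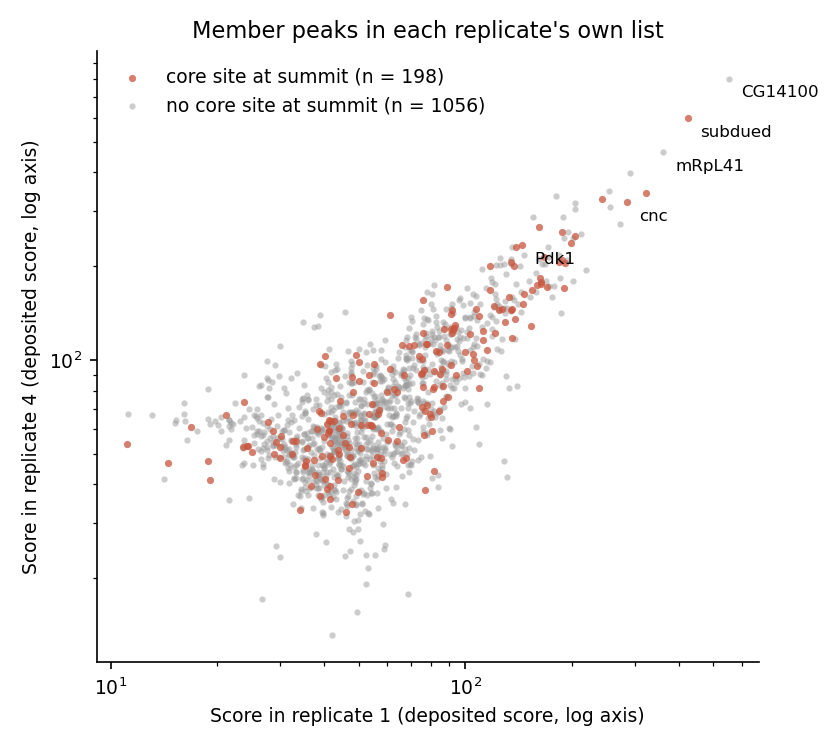
Deposited score of each member in replicate 1 (x axis, log scale) and in replicate 4 (y axis, log scale), for the 1254 members matched in both lists; each point is 1 peak, red with a core site within 50 bp of the summit and grey without. Scores of strong members rise together, with CG14100 at 552 and 800, and the points spread widely at low scores.

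No difference in the share of highest scores was detected between members and the other classes of peak in the thresholded list. 263 members (19.4%) were among the 895 highest-scoring peaks of the list, 1 peak in 5. That share was 20.4% among the 872 autosomal peaks shared by TSSs of 2 or more genes (odds ratio, members over shared, 0.936, 95% interval 0.753 to 1.17, adjusted exact p = 0.549). It was 22.8% among the 457 X-linked peaks at single-gene promoters (0.815, 0.627 to 1.07, adjusted exact p = 0.365) and 18.1% among the 1216 autosomal peaks with no TSS within 500 bp (1.09, 0.887 to 1.33, adjusted exact p = 0.549). These are two-sided Fisher's exact tests adjusted by Benjamini-Hochberg over the 3 comparisons, and peaks are not replicate samples. The median score was 115 for members, 125 for the shared class, 123 for the X-linked class and 111 for peaks away from TSSs. Medians were not tested. With the best peaks of 1 replicate in place of the thresholded list, the members' lower share against the X-linked class passed the threshold in both replicates: the odds ratio was 0.723 (adjusted exact p = 0.0271) without replicate 1 and 0.689 (adjusted exact p = 0.0107) without replicate 4. Against shared promoters it passed without replicate 1 (0.773, adjusted exact p = 0.0271) and did not without replicate 4 (0.864, adjusted exact p = 0.295).

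Members were spread over the autosomal arms, with 288 on 2L, 354 on 2R, 312 on 3L, 398 on 3R and 6 on the small chromosome 4, and their summits lay mainly just upstream of the TSS. The median offset from the TSS was −55 bp, with quartiles of −157 and 30.5 bp, where negative offsets are upstream and positive ones inside the transcribed region. 909 members (66.9%, 64.4 to 69.4%) had their summit upstream, and 656 (48.3%) lay within 100 bp of the TSS. 94.9% of members had 1 fixed width, 440 bp, and the summits of most peaks are the middle of such a window. An offset is thus good to the resolution of the window and not to the base. The 2 members nearest inside the limit were the calcium-binding protein gene Eip63F-1, 500 bp from its TSS with a score of 268, and the proton pump subunit gene Vha16-1 at 499 bp with 315. The 2 peaks nearest outside it were at porin, 503 bp away with a score of 222, and at CG46385, 503 bp away with 186.

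**Figure D2:**
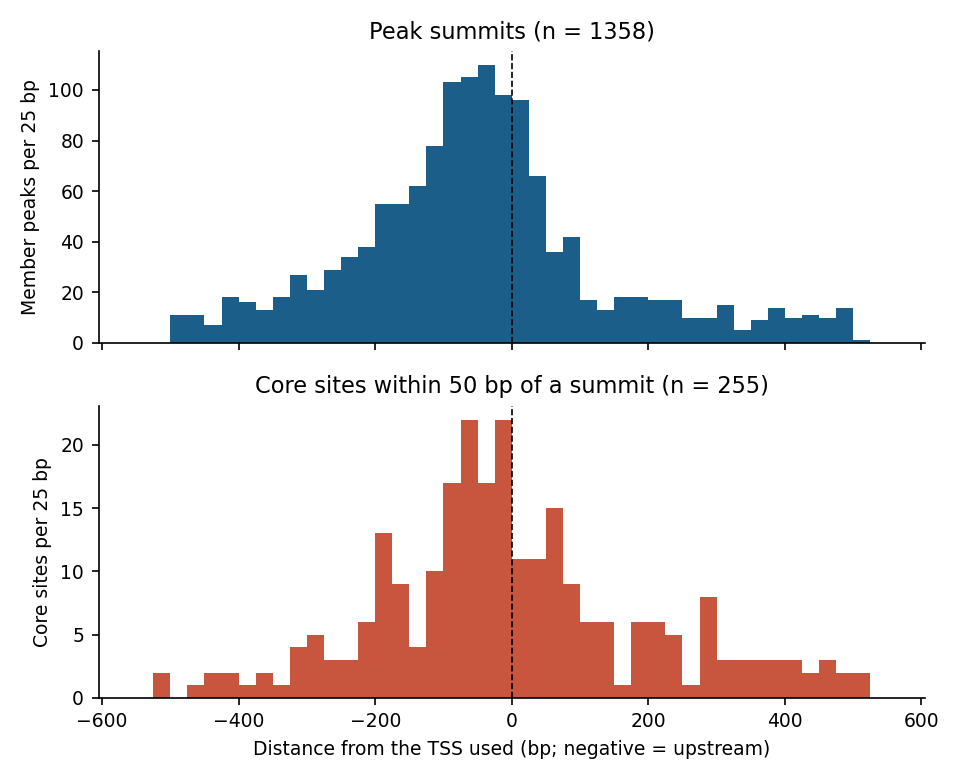
Distance in bp from the TSS used to the summits of the 1358 members (upper panel) and to the 255 core sites within 50 bp of those summits (lower panel), counted in bins of 25 bp; negative distances are upstream and the dashed line marks the TSS. The summits crowd just upstream of the TSS with a median of −55 bp, and the core sites have a median of −22 bp.

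The core site was concentrated at the summits of members. 212 members (15.6%, 13.7 to 17.7%) had TAACNGT on either strand within 50 bp of the summit, against 3.68% in windows of equal size 500 bp to the left and 1.99% in those to the right, a ratio of 5.51 to their mean of 2.84%. Member by member, 206 had it at the summit and not on the left against 44 on the left and not at the summit (two-sided exact McNemar test, p = 3.04e-26), and the figures for the right side were 207 and 22 (p = 6.71e-39). The permuted pattern TNACAGT, which shares the form TAACAGT with the core, was at 6.55% of summits and 3.98% of flanks. Most members had no core site in this window. Of the members' 255 sites, 140 (54.9%) read TAACGGT, 55 TAACTGT, 33 TAACAGT and 27 TAACCGT. A run such as TAACGGTTA enters as both TAACGGT and TAACCGT, so these counts are not independent. 128 sites (50.2%) lay within 20 bp of the summit. 174 members had 1 site, 34 had 2, 3 had 3 and 1 had 4; only 21 of the 38 with more than 1 had sites that do not overlap. The overlapping form TAACNGTTA was at 18 members (1.33%) and in 0.221% of flanks.

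The share with a core site was largest in the members of highest score. It was 26.1% (21.0 to 31.7%) in the highest of 5 equal groups of members by score, from 185 to 1349, then 15.4%, 12.9%, 11.4% and, in the lowest, 12.2% (8.53 to 16.7%). The flanks of these groups stood between 2.40% and 3.32%. Members with several sites included cnc at 608, the isocitrate dehydrogenase gene Idh at 443 (187 and 257 in replicates 1 and 4), cass at 431 (198 and 238) and GrlHz at 398 (187 and 210). By position, 20.7% (17.1 to 24.8%) of the 449 members with the summit at or downstream of the TSS had a core site, 16.1% of the 416 with the summit 1 to 100 bp upstream and 10.5% (7.98 to 13.6%) of the 493 farther upstream. 146 of the 255 sites (57.3%) were upstream of the TSS. No preferred direction of the core relative to the gene was detected: among the 174 members with 1 site it was on the coding strand in 91 (52.3%, 44.6 to 59.9%, two-sided exact binomial test against an equal split, p = 0.596).

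Members had a core site more often than peaks at shared promoters did. The share was 15.6% of members against 9.40% (82 of 872) of shared promoter peaks, an odds ratio of 1.78 (1.35 to 2.37, two-sided Fisher's exact test, adjusted over 3 comparisons, exact p = 6.44e-05). Their flanks were at 2.84% for members and 2.01% for shared peaks. No difference was detected from X-linked single-gene promoter peaks at 16.6% (0.927, 0.692 to 1.25, adjusted exact p = 0.605) or from autosomal peaks away from TSSs at 14.2% (1.12, 0.892 to 1.40, adjusted exact p = 0.520). The difference from shared promoter peaks passed the test in every alternative run, from an odds ratio of 1.37 with the core sought within 100 bp to 2.80 among the 1000 highest scores.

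**Figure D3:**
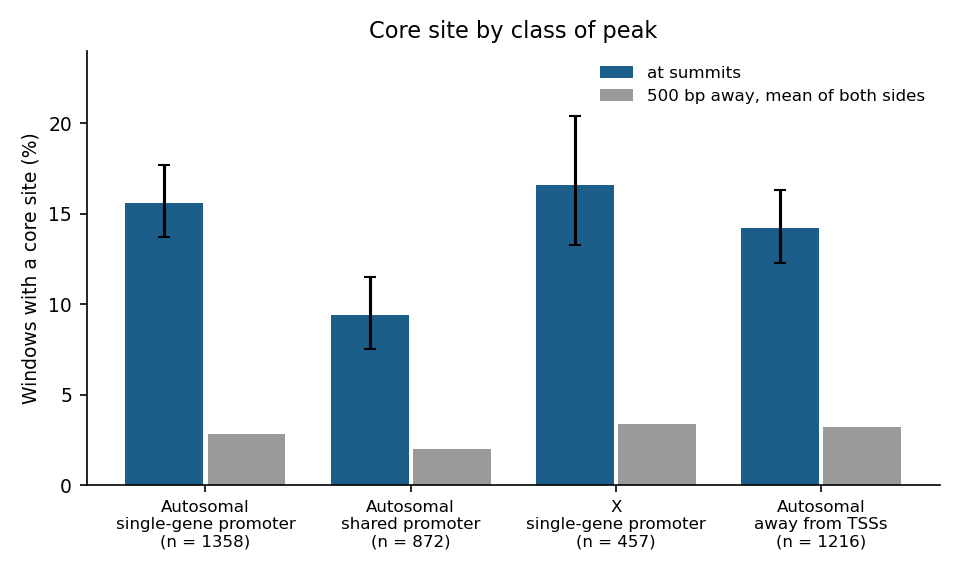
Percentage of windows of 50 bp either side that hold the core site, at the summits (blue, with 95% exact intervals) and 500 bp away (grey, mean of both sides), for members on the left and the other 3 classes of peak. Members stand at 15.6% and shared promoters at 9.40%, and all 4 classes are above their flanks.

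The promoter used was a downstream one in most members that offered a choice. 522 members were at genes with 1 annotated TSS and 836 (61.6%) at genes with several. TSSs of a gene that were 500 bp or less apart were joined into 1 promoter, and each member was given to the promoter of its nearest TSS. By that count 703 members were at genes with 1 promoter and 655 (48.2%) at 490 genes with 2 or more. Of these 655, 259 (39.5%, 35.8 to 43.4%) lay at the 5'-most promoter and 396 (60.5%) farther downstream, and 307 (46.9%) lay at the promoter with most transcripts. For comparison, 5'-most promoters were 34.4% of the 1425 promoters of these genes. At genes with 2 promoters 51.3% of members were at the 5'-most, at genes with 3 it was 34.1%, with 4 it was 31.6% and with 5 or more 15.9%; even use would give 50%, 33.3%, 25% and 17.2%. The rule itself acts on this count, since a 5'-most promoter has another gene's TSS nearby more often. 80.0% of the 5'-most but 97.6% of the downstream promoters had no TSS of another protein-coding gene within 500 bp of their main TSS, and these are called eligible below. Of the eligible ones, 59.2% of 392 5'-most promoters (54.1 to 64.1%) and 39.8% of 913 downstream promoters (36.6 to 43.0%) held a member. At genes all of whose promoters were eligible, 234 of 500 members (46.8%) were at the 5'-most. Downstream promoters thus held more members in number. The higher rate of eligible 5'-most promoters pools genes of all promoter counts, all of them chosen for having a member. Genes with many promoters add many downstream ones to it. Taken by number of promoters, each interval of the share at the 5'-most includes even use. That mark counts every promoter of a gene, eligible or not, and the eligible ones were not split by number. Whether promoters that the rule admits are used evenly thus cannot be told from it.

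**Figure D4:**
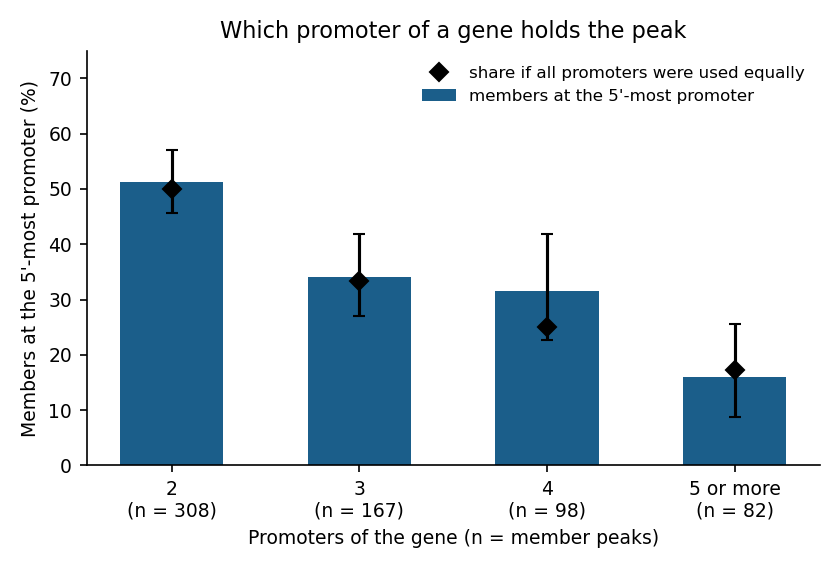
Percentage of members at the 5'-most promoter of the gene (blue bars, 95% exact intervals) by the number of promoters of the gene, with the share that even use of all promoters would give (black diamonds). The bars stand at 51.3%, 34.1%, 31.6% and 15.9% and each interval includes its diamond. The diamonds also count promoters that are not eligible, so they cannot show even use among eligible ones.

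The TSS used could be read at single genes. The cnc gene has 8 promoters, and its strongest member, of score 608, lay 199 bp inside transcript cnc-RE at the seventh, where a weaker member scored 117 (62.7 and 46.7 in replicates 1 and 4). The sixth promoter of cnc held a member of score 168 (88.1 and 92.1), and the other 6 had no thresholded peak. At subdued the peak was at the second of 2 promoters, 59 bp upstream of transcripts subdued-RB and subdued-RF, and the first had none. Eno had its peak at the last of 3, 244 bp upstream of Eno-RA and Eno-RF. Its other promoters, which were not eligible, had no peak within 500 bp. The second, with its TSS at 1728463 on 2L, missed that limit narrowly, as the same summit was at 1727961. The peak of lolal was at the second of 3, upstream of lolal-RD and lolal-RG. The gene of the RNA-binding protein Syp, with 5 promoters, had its strongest member, 508 (204 and 306), 327 bp upstream of Syp-RB, Syp-RN and Syp-RR at the second, where another member scored 251 (36.1 and 74.6). It had further members of 110 at promoter 3 and 135 at promoter 4, and no peak at the first and last promoters, which serve 7 and 6 of its 20 transcripts. At Dph4 the member lay at the second of 2 promoters, and the first had a peak of 308 that another gene shares. The highest scores at 5'-most promoters were at CG5953, 84 bp inside, at Sox14, 261 bp upstream of Sox14-RC, at Gdap2, with 440 (161 and 267) at the first of 4 promoters and 129 at the last, and at Liprin-gamma, with 368 (139 and 230), a gene named for the liprin scaffold proteins of synapses. The second promoters of CG5953, Sox14 and Liprin-gamma had no peak.

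Several genes had members at more than 1 promoter. Of the 1139 genes, 946 had 1 member, 175 had 2, 12 had 3, 5 had 4 and 1 had 6. Among the 193 with 2 or more, 106 had them at different promoters and 87 at 1 promoter, and 31 genes with 2 or more promoters had a member at every one. Peaks whose intervals overlap were counted as separate members. Pdk1, the kinase that activates Akt downstream of insulin, had 6, a pair at each of promoters 1, 2 and 4 and none at promoter 3. Their scores were 387 (144 and 234 in replicates 1 and 4), 256 (135 and 118), 173 (76.1 and 94.9), 128 (58.4 and 56.2), 122 (99.4 in replicate 4, no match in replicate 1) and 118 (50.2 and 47.8). The 2 peaks at promoter 2 overlap, as do those at promoter 4. Whether such a pair is 1 bound region or 2 cannot be told apart here. The translational repressor gene smg had 350 (169 and 179) at promoter 3 and 215 (130 and 88.9) at promoter 2. The RNA-binding protein gene larp had members at 4 of 5 promoters, with scores from 108 to 232. The Notch antagonist gene numb had 343 (163 and 178) at promoter 1 and a member with 80.4 in replicate 1 and 121 in replicate 4 at promoter 2. The BTB zinc-finger gene lola had 238, 218 and 83.9 at 3 of 4 promoters, of which the member of 218 had no match in replicate 1 and that of 83.9 none in replicate 4; the promoter without a member serves 8 of its 24 transcripts.

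Within genes of several promoters, the core site was found at 20.1% of members at the 5'-most promoter (52 of 259) and 12.4% of those downstream (49 of 396). The odds ratio was 1.78 (1.13 to 2.79, two-sided Fisher's exact test, p = 0.0107). This difference depended on the setting. It passed the threshold without replicate 4 (odds ratio 1.84, exact p = 0.00655), with the core within 100 bp (1.78, exact p = 0.00382), with no TSS of a non-coding gene within 500 bp (1.74, exact p = 0.0163), with promoters joined at 1000 bp (1.60, exact p = 0.0402) and with all promoters eligible (1.80, exact p = 0.0271). It missed the threshold without replicate 1 (odds ratio 1.51, exact p = 0.0825), with 1 member per gene (1.47, exact p = 0.115), with the core within 25 bp (1.39, exact p = 0.223), with promoters joined at 100 bp (1.44, exact p = 0.0831) and among the 1000 highest scores (1.63, exact p = 0.234). Scores had a median of 119 at both kinds of promoter.

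Promoters with a member differed in sequence from those without. The windows ran from 150 bp upstream to 50 bp downstream of the TSS with most transcripts at the 10547 eligible autosomal promoters. Of these, 1225 (11.6%) had a member and 9190 had no thresholded summit within 500 bp; the remaining 132, near another class of peak, were left out. The Ovo core was in 13.4% of promoters with a member and 7.25% of those without (odds ratio 1.98, 1.64 to 2.38, adjusted exact p = 1.62e-11), and in 8.06% of all. The permuted pattern TNACAGT was in 10.3% with and 9.27% without (1.12, 0.913 to 1.37, adjusted exact p = 0.277). GAGAG, bound by the GAGA factor that keeps promoters open, was in 42.1% with and 26.6% without (2.01, 1.77 to 2.27, adjusted exact p = 8.13e-27), and in 28.3% of all. The TATA box, TATAAA from −40 to −20 on the gene's strand, was the one motif that was rarer by the test, in 3.43% with and 9.41% without (0.342, 0.243 to 0.469, adjusted exact p = 7.99e-14), and in 8.64% of all. All p-values are from two-sided Fisher's exact tests adjusted over 11 motifs.

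The motifs of broadly used promoters were each more frequent where a member lay. The share was 6.37% with and 2.49% without for Motif 1, GGTCACACT (odds ratio 2.66, adjusted exact p = 4.62e-11). It was 5.22% with and 2.32% without for Motif 7, CATCNCTA (2.32, adjusted exact p = 1.30e-07), and 6.53% with and 3.78% without for the DRE, TATCGATA, the site of DREF (1.78, adjusted exact p = 3.33e-05). For CAGCTG, the E-box of Motif 5, it was 17.7% with and 11.4% without (1.68, adjusted exact p = 2.56e-09), and for Motif 6, GGTATTT, 8.24% with and 5.31% without (1.60, adjusted exact p = 9.95e-05). Among all eligible promoters these motifs were in 2.98% (Motif 1), 2.77% (Motif 7), 4.25% (DRE), 12.1% (CAGCTG) and 5.68% (Motif 6). Among the 1000 highest-scoring peaks the DRE (1.13, adjusted exact p = 0.711), Motif 1 (1.65, adjusted exact p = 0.159) and Motif 6 (1.40, adjusted exact p = 0.199) no longer passed the test. The Initiator, TCAGT from −10 to 10 on the gene's strand, was in 17.6% with and 16.5% without (1.08, 0.920 to 1.27, adjusted exact p = 0.327) and in 16.6% of all. CAGGTAG, the site of the early embryonic activator Zelda, was in 0.735% with and 1.37% without (0.532, 0.237 to 1.05, adjusted exact p = 0.0961) and in 1.28% of all. Motifs other than the TATA box and the Initiator were read on both strands. Which promoters were active in these flies was not measured, so the sequence of a promoter and its activity cannot be told apart here.

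The same contrast could be described inside genes. At 382 genes with an eligible promoter that held a member and another that had no peak, the core site was in 11.9% of 454 promoters with a member (9.06 to 15.2%) and in 5.65% of 673 without (4.03 to 7.67%). The permuted pattern TNACAGT was in 11.5% with (8.67 to 14.7%) and 7.88% without (5.95 to 10.2%). GAGAG was in 55.9% with and 38% without, Motif 1 in 5.29% with and 1.63% without, the DRE in 3.74% with and 1.49% without, and the TATA box in 1.32% with and 3.27% without. At the summits themselves, Motif 1 was within 50 bp in 1.62% of members and 0.221% of flanks, Motif 7 in 2.50% of members and 0.515% of flanks, the DRE in 2.43% of members and 0.626% of flanks, and GAGAG in 20.2% of members and 12.8% of flanks.

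Genes of 26 lists were counted against the 8613 autosomal protein-coding genes with an eligible promoter, of which 1120 (13.0%) had a member. This percentage is the background for each count below, and intervals are 95% exact ones. Of the cytoplasmic ribosomal protein genes 26 of 42 (61.9%, 45.6 to 76.4%) had a member. The median score of the strongest member of each gene was 158 in this list and 119 over all 1139 genes. The highest were RpL23A at 385 (201 and 179 in replicates 1 and 4), RpL11 at 360 (189 and 171) and RpL24 at 334 (186 and 142), and RpL10 had none. 1 of the 26, RpL11, had core sites at its strongest summit, 3 of them. Of mitochondrial ribosomal protein genes 3 of 15 (20%, 4.33 to 48.1%) had a member: mRpL41, mRpS5 at 84.4 and mRpL10 at 74.9, the last without a match in replicate 4 and mRpS5 without one in replicate 1.

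Signalling and growth genes stood above the background in several lists. Of insulin and TOR genes 8 of 13 (61.5%, 31.6 to 86.1%) had a member, led by Pdk1, by Pi3K21B at 358 (178 and 173), the adaptor subunit of PI3 kinase, and by REPTOR at 293 (141 and 152), a transcription factor held back by TOR, while gig had none. Of the Hippo genes it was 6 of 11 (54.5%, 23.4 to 83.3%), with the kinase genes dco at 401 (184 and 217) and hpo at 222 (97.3 and 125). Of ubiquitin genes 11 of 18 (61.1%, 35.7 to 82.7%) had one, among them the ligase genes ago at 270 (124 and 145) and Cul3 at 252 (119 and 138) and the conjugating enzyme gene eff at 193 (104 and 95.8). JAK-STAT genes had 3 of 6, with the transcription factor gene Stat92E at 163 (76.9 and 89.0) and the feedback inhibitor gene Socs36E at 155 (81.3 and 68.9). Wnt genes had 4 of 14, led by gish at 332, Hedgehog genes 2 of 9 and nuclear receptor genes 4 of 18. The nuclear receptors were led by Hnf4 at 326 (152 and 159), at the second of 5 promoters, and by Eip75B at 311 (146 and 163), at the last of 7 and with a core site. The intervals of the last 4 of these lists, JAK-STAT, Wnt, Hedgehog and nuclear receptors, include the background, and those of the first 3 do not. With a TSS window of 1000 bp the interval of the Hippo list includes it too (44.4%, 13.7 to 78.8%). Among the 1000 highest scores, where the background is 3.08%, the Hippo interval (2.28 to 51.8%) includes the background. There the nuclear receptor interval (3.58 to 41.4%) lies above it. Each replicate alone puts the interval of the JAK-STAT list above the background (66.7%, 22.3 to 95.7% in both), and replicate 4 alone that of the nuclear receptors (33.3%, 13.3 to 59.0%).

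Lists of cell structure and of gene expression were counted in the same way. Microtubule and spindle genes had members at 8 of 17 (47.1%, 23.0 to 72.2%), led by the cytoskeletal linker gene shot at 208 (82.0 and 116). Actin genes had them at 6 of 15 (40%, 16.3 to 67.7%), led by the myosin gene jar at 336 (125 and 202) and the profilin gene chic at 233 (88.0 and 146), and mitochondrial import and dynamics genes at 7 of 19 (36.8%, 16.3 to 61.6%). The interval of the actin list lies above the background here and with each replicate alone. That of the microtubule and spindle list includes it without replicate 1 (29.4%, 10.3 to 56.0%) and with a TSS window of 250 bp (20.8%, 7.13 to 42.2%), and that of the mitochondrial import list without replicate 1 (26.3%, 9.15 to 51.2%). Splicing genes had 5 of 15 (33.3%, 11.8 to 61.6%), chromatin genes 4 of 19 (21.1%, 6.05 to 45.6%) and Mediator and TFIID genes 3 of 16 (18.8%, 4.05 to 45.6%). Vesicle traffic had 2 of 20, autophagy 1 of 10 (Atg18b at 206) and DNA repair 1 of 18 (Claspin at 137), and the intervals of the splicing, chromatin, Mediator and TFIID, vesicle traffic, autophagy and DNA repair lists include the background. That of the splicing list lies above it without replicate 4 (6 of 15, 16.3 to 67.7%).

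Of the female germline regulators, 7 of 23 (30.4%, 13.2 to 52.9%) had a member and 1 further gene had a member and no eligible promoter. Without replicate 4 the count was 6 of 23 (26.1%, 10.2 to 48.4%), an interval that includes the background. Among the 1000 highest scores it was 1 of 23 (4.35%, 0.110 to 21.9%), against a background of 3.08%. The highest were the mitotic cyclin gene CycB at 189 (84.2 and 106 in replicates 1 and 4), the germ plasm gene osk at 174 (81.7 and 92.5) and the piRNA factor gene piwi at 154 (66.7 and 93.7). CycB and osk each had 1 core site at the summit, which lay 87 bp inside the gene at CycB and 95 bp upstream of it at osk, and piwi had no core site. 3 of the 8 genes had a core site at their strongest summit, against 16.5% of the strongest members of all 1139 genes (14.4 to 18.8%). That contrast rests on 8 genes and was not tested. The gene bam, a differentiation factor of the cyst, had no member.

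Gene families of sense organs and cuticle had none. No member was found at the 92 odorant and gustatory receptor genes, which allows a share of up to 3.93%, the 45 ionotropic receptor genes (up to 7.87%), the 37 odorant-binding protein genes (up to 9.49%) or the 108 cuticle protein genes (up to 3.36%). These are the upper 95% exact limits. Among the 1000 highest scores the background of 3.08% lies within these limits for each family. Neuronal channel and receptor genes had 2 of 32 (6.25%, 0.766 to 20.8%): Oamb, an octopamine receptor, at 154 (79.2 and 67.3) with 3 core sites, and Ih at 76.4. Cytochrome P450 genes had 4 of 64 (6.25%, 1.73 to 15.2%) with Cyp6a22 at 221 (93.1 and 127), and glutathione transferase and UDP-glycosyltransferase genes 6 of 61 (9.84%) with GstE13 at 338 (125 and 212) and GstD1 at 238 (91.1 and 147). Over all eligible genes, 9.01% of those with 1 promoter and 30.2% of those with 2 or more had a member. The number of promoters was not compared between lists, and its part in these counts was not tested.

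**Figure D5:**
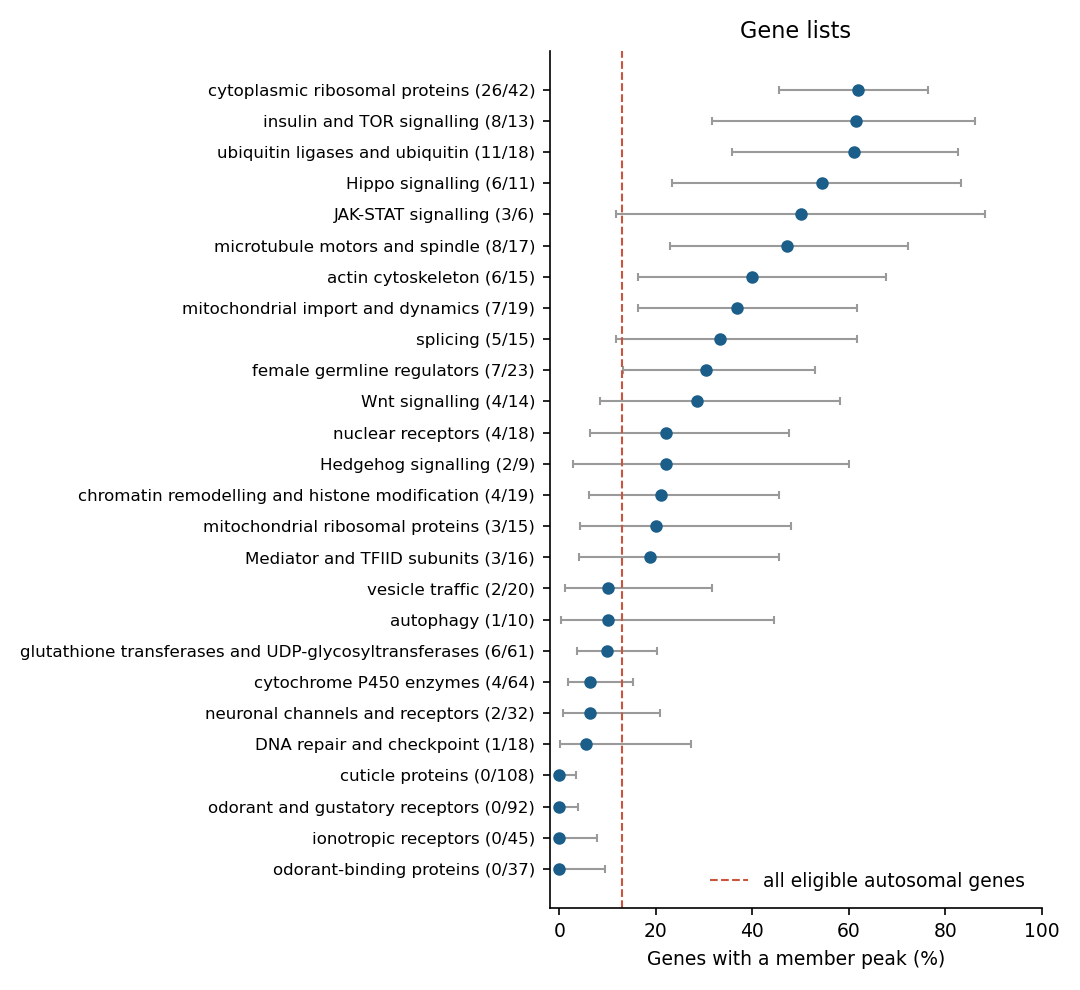
Percentage of genes with a member (points) in each of 26 lists, with 95% exact intervals, and the count of genes with a member over eligible genes in brackets; the dashed line is the 13.0% over all eligible autosomal genes. Cytoplasmic ribosomal protein genes stand at 61.9% and the receptor, odorant-binding and cuticle families at 0.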

How the data were processed

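Per the labels, ChIP-seq was done on whole adult females with 2 biological replicates. The authors deposited, on dm6, a relaxed peak list for each replicate, one for both together and a thresholded list, with a score per peak (their enrichment over the control) and, as another value, the summit position. Per a deposited text record, the thresholded list was made with the irreproducible discovery rate procedure. For the aligner, peak caller and limit no source used here gives a name or value. The thresholded list equals the 4477 highest-scoring peaks of the list of both replicates. Lists on dm3 were not used. TSSs were all 19607 distinct gene start sites of 13945 protein-coding genes in Ensembl release 115, on genome Release 6, whose arm lengths hold every peak, and positions are 1-based.

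Members were classified with Python 3.11.15, pandas 2.3.3 and numpy 2.4.6, exact tests were run with scipy 1.17.1, and figures were drawn with matplotlib 3.10.9. Adjusted p-values are Benjamini-Hochberg values, with a threshold of 0.05, and exact intervals are 95% Clopper-Pearson intervals. Tests compare peaks or promoters of 1 list, not samples, and neighbouring peaks of a gene are not independent. The motif search, the classes of peak and the joining of TSSs were checked on simulated data, and the Benjamini-Hochberg adjustment on given values. The exact tests were not run on simulated data. The members, the 26 gene lists (1242 genes, 20 symbols matched through older names, 5 unmatched) and the tests were chosen with earlier results of these data known. Named genes follow a rule: the 12 highest scores, the 3 highest of each list and its first gene without a member, the 6 highest at downstream and the 4 highest at 5'-most promoters, the 5 genes with the strongest second promoter, the 4 highest with 2 or more core sites, and the 2 peaks nearest each side of 500 bp. Genes named for more than this were taken from the sequences shown, the 8 highest-scoring with a core site and the 3 without, in windows with at most 30 bases of annotated UTR and off arm 2R, whose sequence is not shown here. Alternatives were other windows, promoter joins, lists and match distances, the 1000 highest scores, and each replicate alone.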

Additional observations from a re-analysis of the deposited data

How the results depend on the processing

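With the 1000 highest scores, 285 members were left, at 3.08% of eligible genes. The odds ratio of the core site was then 1.51 (adjusted exact p = 0.194) against X-linked promoters, and that of the score 1.24 against shared promoters and 0.854 against peaks away from TSSs (adjusted exact p = 0.522 for both), on the other side of 1 from the full list, with no call in either. The share at the 5'-most promoter was 34.7%, the odds ratio of the core site by promoter 1.63, and 99.3% (replicate 1) and 98.9% (replicate 4) of members were among each replicate's best. With a TSS window of 1000 bp members were 41.6% of autosomal peaks and 14.6% of eligible genes had one. The share at the 5'-most promoter was 43.5% with promoters joined at 1000 bp and 46.8% with all promoters eligible. The core site by promoter had 1.39 within 25 bp, 1.47 with 1 member per gene and 1.44 with joins at 100 bp. Matching summits within 50 bp gave 73.6% (replicate 1) and 76.4% (replicate 4), and within 200 bp 83.9% and 87.0%. The cause of these changes was not tested.

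From the best peaks of 1 replicate alone, without replicate 1 and without replicate 4, the odds ratio of the core site by promoter was 1.51 and 1.84, of the core site against X-linked promoters 0.968 and 1.01, and of the score 0.773 and 0.864 against shared and 0.723 and 0.689 against X-linked promoters. The Zelda site at promoters passed the threshold without replicate 1 (odds ratio 0.480) and with the 5'-most TSS (0.477). Replicate shares have no value without a replicate. The core site at summits over flanks stayed between 3.44 and 9.25, and passed the test in every alternative run, as did the core site, GAGAG and TATA box at promoters. Of the 26 lists, 26 stayed within their intervals with each replicate alone. 1 left its interval with a TSS window of 250 bp (microtubule and spindle, 20.8%) and 1 with a window of 1000 bp (autophagy, 0%). Among the 1000 highest scores 16 left them. There the background itself was 3.08% in place of 13.0%, so that count is no measure of how stable the lists are. No paired analysis was possible because there is 1 group. Depth is unknown, so weak members, such as the 34 outside the best of both replicates, cannot be weighed by their reads.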

Other observations

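Genes with a member were long. Their median length was 5788 bp, against 1980 bp for the 7493 eligible genes without one, and 43.0% of them had 2 or more promoters, against 15.1% of those without. 265 of the 1139 genes (23.3%, 20.8 to 25.8%) also had a thresholded peak inside the gene that was not within 500 bp of any protein-coding TSS. That share was not counted for genes without a member, and the part of gene length in it was not tested. The promoters were mostly isolated: the TSS used had its next neighbour of another protein-coding gene at a median of 2731 bp, which the rule sets in part, and 29.2% of members had none within 5000 bp.

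Some members stood in more than 1 context. 105 (7.73%) had their summit inside another protein-coding gene, eIF6 and Dph4 among them, and 22 of these (21.0%, 13.6 to 30%) had a core site. 87 members (6.41%) had a TSS of a non-coding gene within 500 bp, mRpL41 and eIF6 among them, and 12 of these (13.8%, 7.34 to 22.9%) had a core site, against 15.6% of all members. For those 87 a peak at the coding gene and one at the non-coding gene cannot be told apart. On chromosome 4, 6 of 103 eligible promoters (5.83%, 2.17 to 12.2%) had a member, against 11.2% of those on 3L, 12.1% on 3R, 12.3% on 2R and 11% on 2L.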
